A study of Mus musculus with 6 samples.

Results

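The genes described here bind, take up, sense or break down retinoids: Crabp1, Crabp2, Rbp4, Stra6, Rara, Rarb, Rarg, Rxra and Cyp26b1. They are 9 of the 18193 genes that the arrays measured, and all 12 probe sets carrying 1 of these symbols were read, of 34945 probe sets with a single symbol. The set was chosen by name around Crabp1, whose difference between the cell lines was known from an earlier reading of the same arrays. The difference between the lines is therefore given as a description, without a test.

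Total RNA came from SYF cells, fibroblasts of mouse embryos lacking the tyrosine kinases Src, Yes and Fyn, stably transfected with a mutant Src. The R388A/Y527F line carries a Src whose weakened catalytic activity imidazole can rescue. The D386N/Y527F line carries a Src that imidazole does not rescue and served as the control for the small molecule. Y527F, shared by both lines, takes away the tail tyrosine whose phosphorylation inhibits Src, and both lines were grown under hygromycin B and then starved of serum before the experiment. The groups were R388A/Y527F cells at 0 h, at 1 h and at 12 h of 5 mM imidazole, and D386N/Y527F cells at the same 3 times. Each group was 1 Affymetrix MOE430 2.0 array, 6 arrays in all. The sources used here do not say whether a line was 1 clone, so the mutation and any other difference between the transfected populations cannot be told apart. No untreated 12 h array was among the 6, so imidazole and time cannot be told apart either.

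Vitamin A travels in blood as retinol bound to RBP4, and STRA6 is the cell surface receptor that passes it into some cells. Inside the cell retinol is oxidised to retinoic acid, which CRABP1 and CRABP2 hold in the cytosol and which CYP26 enzymes degrade. Retinoic acid acts through the receptors RARα, RARβ and RARγ, which bind DNA as dimers with RXR proteins and switch on genes with a retinoic acid response element, a pair of repeated hexamers. The Rarb gene is itself a textbook target of its own receptor family.

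The values are GCOS signals, fluorescence intensities that the authors scaled to the same trimmed mean on each array. A floor of 20.4, at the 40th percentile over the arrays, replaced any lower signal before log2 was taken. A deposited second summary of the same arrays, whose method is not given in the sources used here, had a floor of 11.3. Between 12207 and 12712 genes per array lay above the GCOS floor. All 8 fibroblast markers lay above it on at least 1 array, and their summed signal was 19490 to 21610 on R388A/Y527F arrays, against 17800 to 19680 on D386N/Y527F arrays. Vim, Pdgfra and Fn1 had all R388A/Y527F arrays above all D386N/Y527F arrays, by mean log2 differences of 0.36, 0.52 and 0.66, and Col1a2, Pdgfrb and Thy1 had them below, by -0.31, -1.39 and -1.84. Pdgfrb and Thy1 were at least 2-fold lower at all 3 times, but in the second summary Pdgfrb differed by -0.92 at 0 h. Above the floor on at least 1 array were 5 of 5 epithelial, 2 of 4 haematopoietic, 2 of 4 endothelial, 4 of 5 neural, 1 of 2 adipocyte and 3 of 4 muscle markers on the array. Ptprc, Cd3e, Pecam1, Tek, Sox2, Myog and Adipoq, markers of blood, endothelial, neural, muscle and fat cells, were below the GCOS floor on every array. Others of these lists were above it on all 6 arrays, among them Csf1r at 74.7 to 130.3 and Cd68 at 34.5 to 52.3. Kdr, at 52.9 to 70.1, and Map2, at 105.3 to 235.6, were too, and Map2 separated the lines at 0.93. In the second summary Cd68 and Kdr were below the floor and Cd3e was above it, at 17.6 to 18.7. The summed neural markers reached 363.3 to 467.6 on R388A/Y527F arrays and 301.8 to 335.4 on D386N/Y527F arrays, and the part of the marker lists in the results was not tested. The summed muscle markers lay at 57.3 to 135.8 on R388A/Y527F arrays and 147.9 to 240.4 on D386N/Y527F arrays, and the epithelial ones at 147.4 to 255.6 on R388A/Y527F arrays and 125.6 to 153.4 on D386N/Y527F arrays. The Src probe sets gave 19.1 to 107.3 over the 6 arrays, those of Yes1 10.5 to 219.4 and those of Fyn 82.3 to 238.4. Whether they lie outside the deleted parts of these genes is not known here, so they do not check the labels.

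The windows upstream of 2 members, Crabp1 and Rarb, are shown because Crabp1 carried the difference between the lines and Rarb is the known retinoic acid target among the receptors. Both are RefSeq windows of 250 bases before to 50 bases after the annotated start, on build GRCm38.p6, written 5′ to 3′ along the gene, with capitals for a direct repeat of 2 hexamers separated by 5 bases. The hexamer AGGTCA was searched for on both strands. The variant spelled AGTTCA was allowed too, as were the variant spelled GGGTCA and the variant spelled GGTTCA, with overlaps counted.
Crabp1, chr9:54764498-54764797, plus strand: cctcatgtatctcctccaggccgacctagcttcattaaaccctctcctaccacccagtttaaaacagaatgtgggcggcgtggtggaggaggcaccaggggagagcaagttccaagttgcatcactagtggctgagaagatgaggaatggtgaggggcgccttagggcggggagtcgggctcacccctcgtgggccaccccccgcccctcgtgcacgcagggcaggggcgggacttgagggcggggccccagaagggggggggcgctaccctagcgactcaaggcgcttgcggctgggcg
Rarb, chr14:16575427-16575726, minus strand: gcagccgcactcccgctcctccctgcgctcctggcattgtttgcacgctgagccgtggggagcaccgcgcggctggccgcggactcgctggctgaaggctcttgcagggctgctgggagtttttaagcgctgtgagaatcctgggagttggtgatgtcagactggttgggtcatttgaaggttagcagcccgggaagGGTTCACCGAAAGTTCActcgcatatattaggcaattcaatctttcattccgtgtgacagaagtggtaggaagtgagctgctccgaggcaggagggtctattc

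The Rarb window held the repeat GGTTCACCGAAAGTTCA at bases 198 to 214, which is 53 to 37 bases upstream of the start. Of 17 windows found for 8 members, with none for Crabp2 in the table used, the Rarb window was the only one with a repeat of this spacing, and 0.0975% of 32817 mouse windows held one. The Crabp1 window held none of the 4 hexamers, while 43.7% of all windows held at least 1. Its GC content was 65.0%, against 57.7% in the Rarb window. These matches describe the letters in the windows only.

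Among the binding proteins, Crabp1 separated the 2 lines on every array. CRABP1 holds retinoic acid in the cytosol. Its signal (probe set 1448326_a_at) was 811.3 at 0 h, 884.4 at 1 h and 1058 at 12 h in R388A/Y527F cells. In D386N/Y527F cells it was 26.1, 24.2 and 19.3 at the same times, close to or below the floor. The lowest R388A/Y527F array was thus far above the highest D386N/Y527F array.

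The log2 difference in Crabp1, R388A/Y527F minus D386N/Y527F, was 4.96 at 0 h, 5.19 at 1 h and at least 5.70 at 12 h, where the D386N/Y527F signal lay under the floor. The mean over the 3 times was 5.28 ± 0.38 (SD, n = 3 times), or at least 38.9-fold. By this mean Crabp1 stood at rank 1 of the 14512 genes above the floor on at least 1 array. Its second summary values were 1728, 1872 and 2324 in R388A/Y527F cells, against 35.8, 26.7 and 30.7 in D386N/Y527F cells, all above that summary's floor. The mean log2 difference there was 5.99 ± 0.35 (SD, n = 3 times), at rank 2 of 12517 genes. The difference was present at 0 h, before imidazole was added. As the RNA was of whole cultures, fewer cells with a transcript and less of it per cell cannot be told apart.

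CRABP2, which delivers retinoic acid to its nuclear receptor, had no GCOS signal above the floor. Crabp2 (1451191_at) read 5.7, 6.0 and 2.1 in R388A/Y527F cells and 4.3, 5.3 and 7.7 in D386N/Y527F cells, so no difference could be measured. Just over its floor, the second summary averaged 12.3 ± 0.175 for it in R388A/Y527F cells and 13.15 ± 1.18 in D386N/Y527F cells, a mean log2 difference of -0.10 ± 0.11 (SD, n = 3 times each). In the GCOS signal only 1 of the 2 genes for cytosolic binding proteins was therefore measured well above the floor, and only in the R388A/Y527F line.

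Rbp4, the gene for the plasma carrier of retinol, was near the floor in both lines. Its GCOS signal (1426225_at) was 28.9, 25.1 and 19.7 at 0 h, 1 h and 12 h in R388A/Y527F cells, against 29.8, 47.2 and 36.7 in D386N/Y527F cells. The R388A/Y527F arrays all lay below the D386N/Y527F arrays, though at 0 h by less than 1 signal unit. With the floor counted at 12 h, its mean log2 difference of -0.60 ± 0.48 (SD, n = 3 times) became -0.01 in the second summary, where 1 array exceeded the floor.

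Stra6, the uptake receptor for retinol carried by RBP4, was dimmer in R388A/Y527F cells at each time. Its signal (1422723_at) was 34.1, 5.3 and 12.2 in R388A/Y527F cells at 0 h, 1 h and 12 h. In D386N/Y527F cells it was 57.4, 63.0 and 23.6, and the lines overlapped because the R388A/Y527F array at 0 h exceeded the D386N/Y527F array at 12 h. With the floor applied, the log2 differences were -0.75, at least 1.63 lower at 1 h, and at least 0.21 lower at 12 h. The mean with floor values counted was -0.86 and is a bound, and it was -0.48 without the 1 h arrays.

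All 6 Stra6 values were above the floor of the second summary. They were 18.4, 14.3 and 15.5 in R388A/Y527F cells and 50.9, 38.2 and 21.2 in D386N/Y527F cells, without overlap. The mean log2 difference was -1.11 ± 0.57 (SD, n = 3 times), and Stra6 stood at rank 181 from the lowest of 12517 genes. In that summary the gap was smallest at 12 h, at -0.45 on the log2 scale, where the D386N/Y527F value was itself low. In the GCOS signal the gap at 1 h, at -1.63 or further, was larger than the -0.75 at 0 h. The size at 12 h is a bound there and cannot be ordered against the other times.

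**Figure D1:**
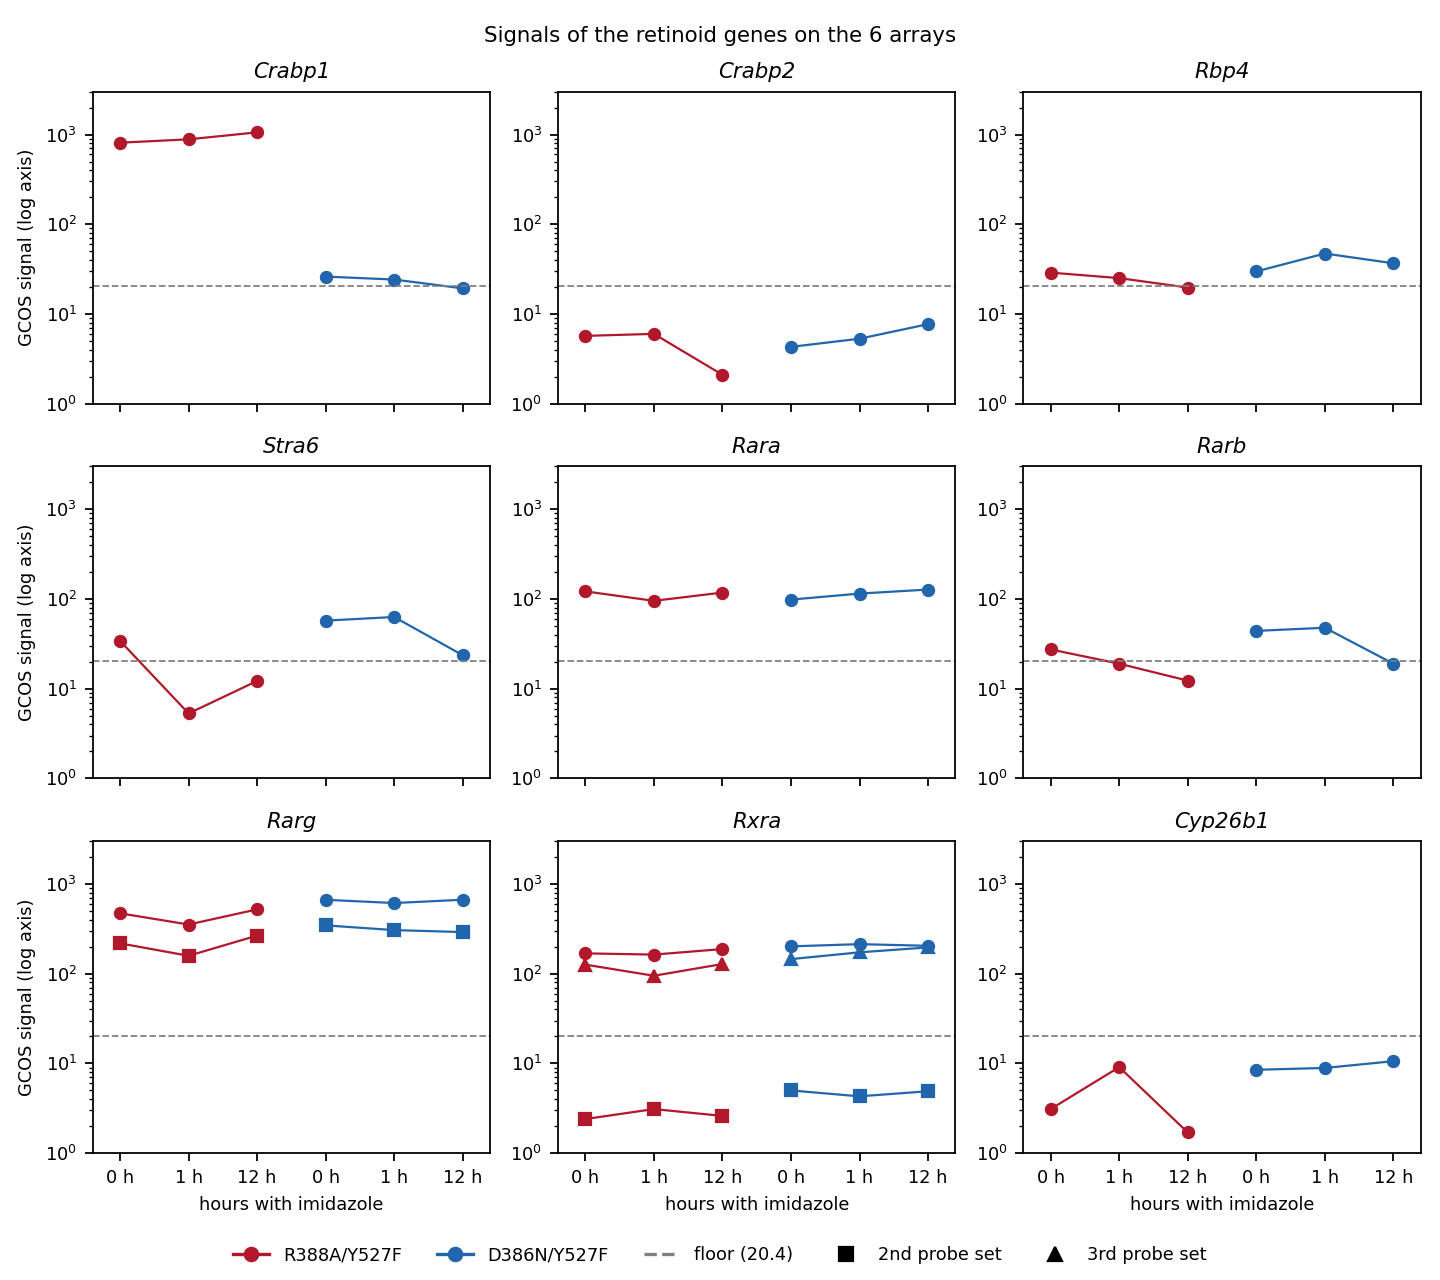
GCOS signals of the 9 genes on a log axis at 0, 1 and 12 h of imidazole in R388A/Y527F cells (red, left) and D386N/Y527F cells (blue, right), 1 point per array, with further probe sets as squares and triangles. The dashed line is the floor of 20.4. Crabp1 lies between 811.3 and 1058 in red and between 19.3 and 26.1 in blue, and the Crabp2 and Cyp26b1 points are all under the floor.

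The nuclear receptors were measured in both lines with much smaller gaps. Rara, encoding RARα, read 121.6, 95.4 and 117.9 in R388A/Y527F cells (1450180_a_at), against 98.4, 114.9 and 127.4 in D386N/Y527F cells. These values overlapped, and the mean log2 difference was -0.02 ± 0.30 (SD, n = 3 times) and -0.02 ± 0.12 in the second summary.

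Rarg, encoding RARγ, was lower in R388A/Y527F cells on both of its probe sets. The set 1419415_a_at gave 471.4, 353.4 and 521.6 in R388A/Y527F cells, against 666.6, 613.6 and 667.7 in D386N/Y527F cells. The set 1419416_a_at gave 218.1, 158.4 and 266.2 in R388A/Y527F cells, against 345.6, 306.4 and 291.1 in D386N/Y527F cells. On neither set did the lines overlap, in either summary.

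For Rarg the mean log2 difference was -0.55 ± 0.22 on 1419415_a_at and -0.58 ± 0.42 on 1419416_a_at (SD, n = 3 times). The second summary gave -0.69 ± 0.23 and -0.83 ± 0.15 on these sets. At each of the 3 times the gap was under 2-fold in both summaries.

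Rxra, encoding RXRα, the dimer partner of the RAR proteins, was read by 3 probe sets. The set 1454773_at, which the platform annotation names Rxra and the deposited table leaves unnamed, gave 168.6, 163.4 and 188.3 in R388A/Y527F cells, against 201.8, 213.6 and 204.7 in D386N/Y527F cells. The set 1425762_a_at gave 126.3, 94.9 and 128.3 in R388A/Y527F cells, against 145.5, 173.2 and 196.5 in D386N/Y527F cells. Both sets separated the lines in the GCOS signal.

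For Rxra the mean log2 difference was -0.26 ± 0.13 on 1454773_at and -0.56 ± 0.34 on 1425762_a_at (SD, n = 3 times). In the second summary these were -0.43 ± 0.13 and -0.30 ± 0.09, and the lines overlapped on 1425762_a_at there. The third set, 1430497_at, was below the floor on all 6 arrays, between 2.4 and 5.0.

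Rarb, encoding RARβ, was near the floor. Its only probe set (1454906_at) read 27.4, 19.0 and 12.3 in R388A/Y527F cells and 44.1, 47.8 and 19.0 in D386N/Y527F cells. The R388A/Y527F array at 0 h lay above the D386N/Y527F array at 12 h, so the lines overlapped. The log2 difference was -0.69 at 0 h and at least 1.23 lower at 1 h, and at 12 h none could be measured because both arrays lay under the floor. With the floor counted the mean was -0.64, and it was -0.34 without the 1 h arrays and -0.96 without the 12 h arrays.

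Rarb in the second summary lay below the floor on all 6 arrays. The array's design text assigned this probe set to Top2b, while the annotation names it Rarb, and which transcript it reads was not tested. No statement on Rarb therefore rests on both summaries.

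Cyp26b1, encoding an enzyme that degrades retinoic acid, was below the floor throughout. Its signal (1460011_at) lay at 3.1, 9.1 and 1.7 in R388A/Y527F cells and at 8.5, 8.9 and 10.6 in D386N/Y527F cells. Every array was also below the floor in the second summary. No order of these values can be read.

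In the GCOS signal 7 of the members could be compared, and Crabp2 and Cyp26b1 could not. Of the 7, Crabp1 was at least 2-fold higher in R388A/Y527F cells at all 3 times, where 1.02% of the 14512 genes were, and 0 were at least 2-fold lower at all 3 times, where 0.696% were. In 1 h arrays alone Stra6 and Rarb were at least 2-fold lower, a size reached by 3.31% of genes. All 3 R388A/Y527F arrays were above all 3 D386N/Y527F arrays for Crabp1, as for 15.2% of genes, and below them for Rbp4, Rarg and Rxra, as for 17.0% of genes. The median of the 7 mean log2 differences was -0.55, against -0.01 over all genes tested.

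In the second summary 7 members could also be compared, with Crabp2 in place of Rarb. Crabp1 was again 2-fold higher at all 3 times, a size reached by 1.34% of 12517 genes, and 0 members were 2-fold lower at all 3 times, where 1.19% were. Stra6 was 2-fold lower at 0 h, as were 2.34% of genes, and at 1 h, as were 2.41%. The arrays separated with R388A/Y527F above for Crabp1, as for 17.8% of genes, and below for Stra6, Rarg and Rxra, as for 24.7%. The median over the members was -0.10, against -0.02 over all genes. It was nearer 0 than in the GCOS signal because Crabp2 took the place of Rarb and Rbp4 lay at the floor, while Stra6, Rarg and Rxra had larger negative differences. The direction for Rarg and Rxra held in both summaries, that for Rbp4 was near 0 in the second, and nothing is read from these shares because the set was selected on this contrast.

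**Figure D2:**
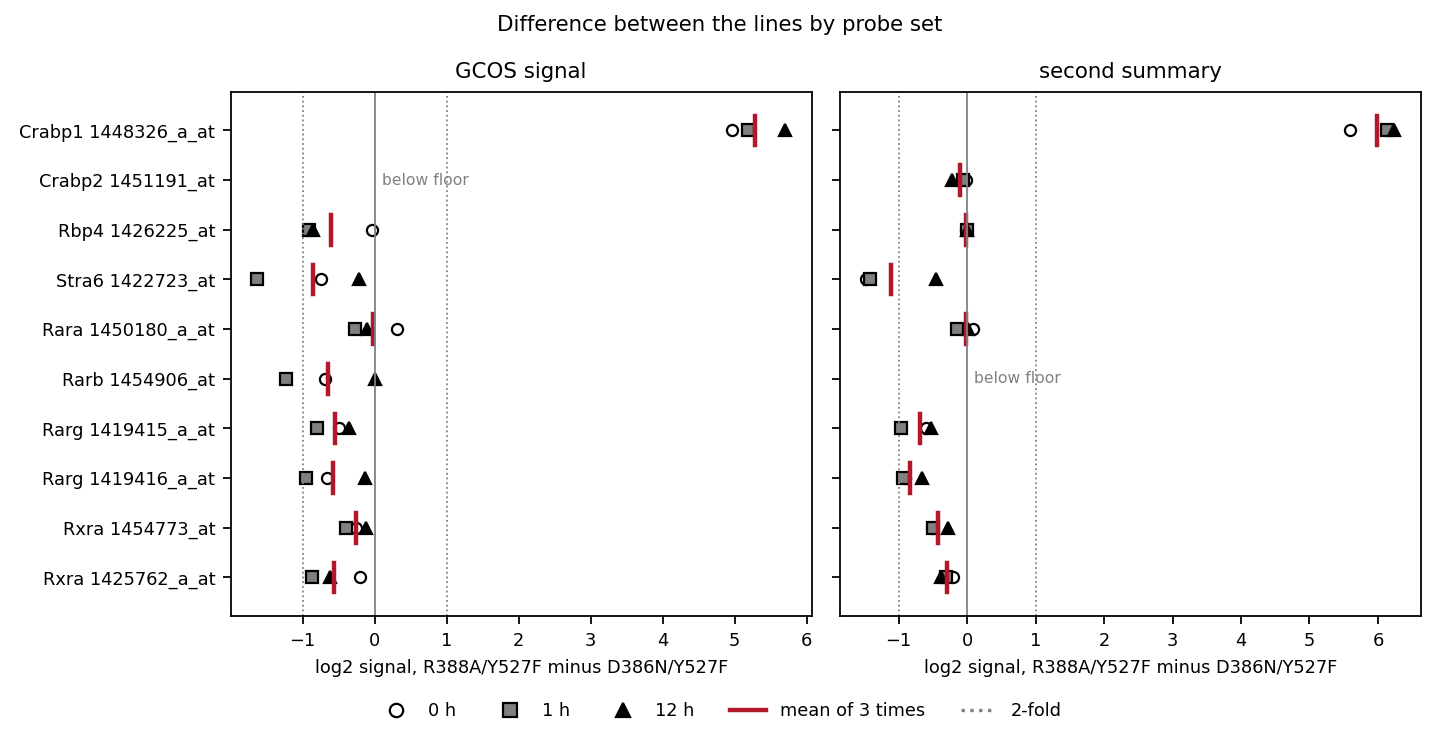
Log2 signal in R388A/Y527F minus D386N/Y527F cells for the probe sets above a floor on at least 1 array in either summary, at 0 h (open circles), 1 h (grey squares) and 12 h (black triangles), with the mean as a red bar and dotted lines at 2-fold. Signals under the floor count as the floor, so both Rarb arrays at 12 h give a difference of 0 in the left panel. The left panel is the GCOS signal and the right panel the second summary. Crabp1 lies at a mean of 5.28 and 5.99, while all other sets have means between -1.11 and 0.

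The changes with imidazole within a line were small for most members. Crabp1 moved by 0.12 at 1 h and 0.38 at 12 h on the log2 scale in R388A/Y527F cells, and by -0.11 at 1 h and -0.36 or further at 12 h in D386N/Y527F cells. Stra6 moved by -0.74 or further at both times in R388A/Y527F cells, where the treated arrays lay under the floor. In D386N/Y527F cells Stra6 moved by 0.13 at 1 h and by -1.28 at 12 h. Rarb moved by -0.43 or further at both times in R388A/Y527F cells, and by 0.12 at 1 h and -1.11 or further at 12 h in D386N/Y527F cells.

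In R388A/Y527F cells 0 of 7 members changed by 2-fold at 1 h, where 2.01% of 13414 genes did, and 0 at 12 h, where 1.95% of 13312 did. In D386N/Y527F cells 0 changed by 2-fold at 1 h, where 2.26% of 13296 genes did. At 12 h in D386N/Y527F cells, Stra6 and Rarb were at least 2-fold lower than at 0 h, as were 0.627% of 13238 genes. By the second summary only Stra6 was, by -1.26 on the log2 scale, as were 0.132% of 12162 genes. Each of these is a difference between single arrays, without a replicate check.

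Tests were made with limma over all 6 arrays, where the lines stand in for replicates of a time. For the change at 1 h common to both lines, 0 of 7 members passed an adjusted p of 0.05 and 1 had an unadjusted p under 0.05, against 0.0% and 3.92% of 13540 genes. That member was Rarg, at -0.27 ± 0.12 (SE), with an adjusted p of 1.0 in limma and a lower treated value in both lines. For the common change at 12 h, 0 members passed and 2 had an unadjusted p under 0.05, against 0.00739% and 8.21% of all genes.

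Those 2 members were Stra6, at -1.01 ± 0.35 (SE), with a limma adjusted p of 0.455, and Rarb, at -0.77 ± 0.32 (SE), with a limma adjusted p of 0.575. Both were lower at 12 h than at 0 h in both lines. The floor stood in for the signal of Stra6 on the treated R388A/Y527F arrays, and for that of Rarb on the same arrays and on the D386N/Y527F array at 12 h. Stra6 in the second summary gave -0.75 ± 0.25 (SE), with a limma adjusted p of 0.324. Crabp1 gave a common change of 0.01 ± 0.20 (SE) at 12 h, with a limma adjusted p of 1.0. That value averages opposite changes, 0.38 in R388A/Y527F cells and -0.36 in D386N/Y527F cells, where the floor stood in for the 12 h signal.

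For the difference between the lines in treated minus untreated change, limma called 0 of 7 members and 0.0% of 13540 genes, and 0 members and 3.36% of genes had an unadjusted p under 0.05. Crabp1 gave 0.49 ± 0.32 (SE) and 0.59 ± 0.26 (SE) in the second summary, with limma adjusted p of 1.0 and 0.999. Rbp4 gave -0.83 ± 0.42 (SE), with a limma adjusted p of 1.0. With 2 residual degrees of freedom, these fits had little precision, and a p above the threshold does not show that a gene did not change.

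**Figure D3:**
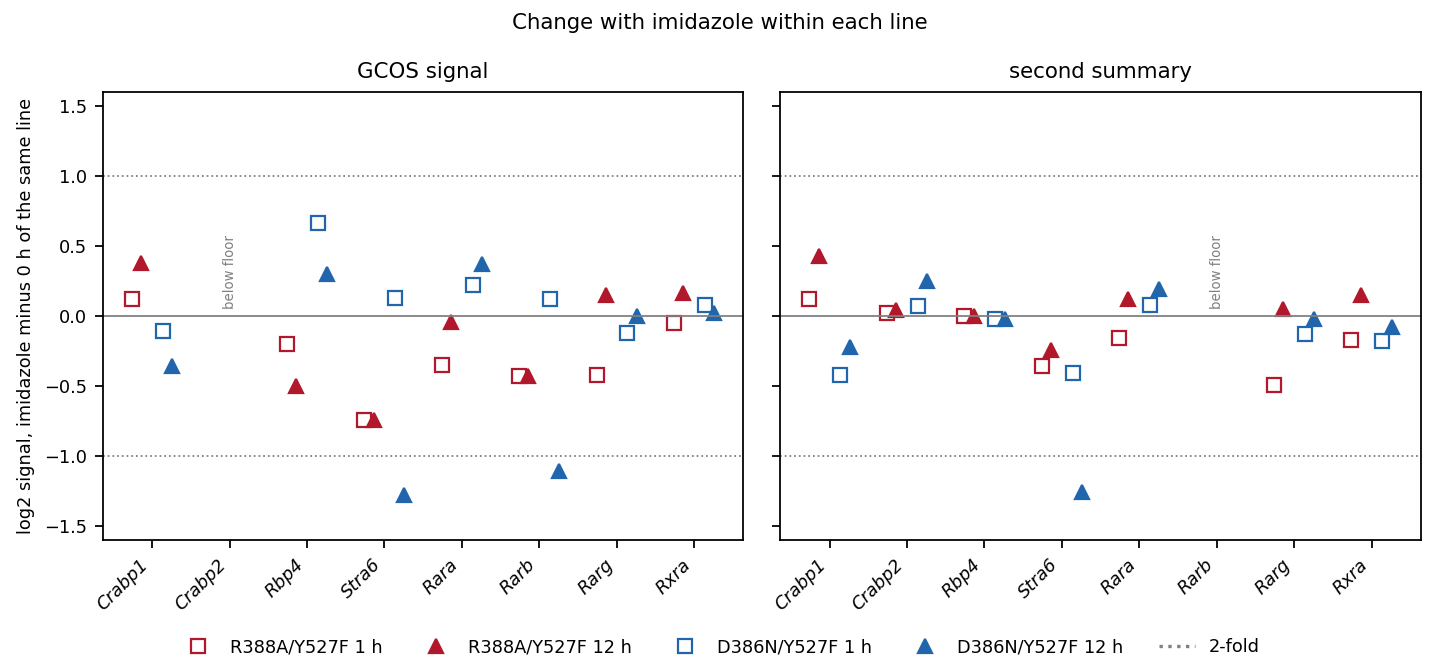
Log2 signal with imidazole minus 0 h of the same line, at 1 h (open squares) and 12 h (filled triangles), in R388A/Y527F cells (red, left of each pair) and D386N/Y527F cells (blue), for 8 genes in the GCOS signal and the second summary, with dotted lines at 2-fold. Stra6 at 12 h in D386N/Y527F cells lies at -1.28 and -1.26, and Rarb at -1.11 in the GCOS signal alone.

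The genes whose signals followed Crabp1 most closely over the 6 arrays were Cavin2, Nrk, Prdm8, Acpp, Slc14a1 and Snhg1, taken by the lower of the Pearson r in the 2 summaries. That r was 0.9985 for Cavin2 and 0.997 for Snhg1. Because the arrays fall into 2 lines, any gene higher in R388A/Y527F cells by a steady gap scores high, even a small one. Snhg1 ranged over only 1.11 on the log2 scale, and 737 genes reached 0.9. Cavin2, a component of caveolae, read 372.1, 380.4 and 407.2 in R388A/Y527F cells, against 22.1, 15.6 and 17.7 in D386N/Y527F cells. Nrk, a protein kinase gene, read 177.6, 190.6 and 245.4 in R388A/Y527F cells, against 14.9, 22.5 and 13.5 in D386N/Y527F cells. Like Crabp1, both were near the floor in D386N/Y527F cells alone.

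For Stra6 the nearest genes were Ddx41, Ttc8, Morn4, Umad1, Psph and Prepl, with a lower r of 0.9646 for Ddx41 and 0.9616 for Prepl, and 64 genes reached 0.9. Psph, an enzyme of serine synthesis, read 537.8, 461.7 and 399.9 in R388A/Y527F cells, against 904.4, 778.9 and 470.4 in D386N/Y527F cells. It shared with Stra6 the lower D386N/Y527F value at 12 h. These likenesses are descriptions over 6 arrays and carry no p.

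The other genes of the pathway were read from 5 lists covering 82 genes, of which 73 were on the array and 57 above the GCOS floor on at least 1 array. Of the 57, 0 were 2-fold higher or lower in R388A/Y527F cells at all 3 times. All R388A/Y527F arrays were above all D386N/Y527F arrays for 4 of them, or 7.02%, and below for 9, or 15.8%, beside the shares of 15.2% and 17.0% over all genes. The second summary had 8 of 45 above, or 17.8%, and 12 below, or 26.7%, beside 17.8% and 24.7% over all genes. The median of their mean log2 differences was -0.02 in the GCOS signal and -0.05 in the second summary. In limma, 0 of 54 were called at 1 h, at 12 h or for the difference in change between lines, with 3, 8 and 1 at an unadjusted p under 0.05. Those are 5.56%, 14.8% and 1.85% of the 54, beside 3.92%, 8.21% and 3.36% of all genes.

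Of 15 measured genes for retinol transport, storage and retinoic acid synthesis, 0 had all R388A/Y527F arrays above and 2 had them below. Over all genes the shares were 15.2% above and 17.0% below. Rdh11, a retinol dehydrogenase family member, read 110.7, 141.7 and 160.2 in R388A/Y527F cells, against 246.2, 215.3 and 224.9 in D386N/Y527F cells, a mean log2 difference of -0.75. Scarb1, a lipoprotein receptor that also takes up carotenoids, had a mean log2 difference of -0.28. The arrays of the lines overlapped for Bco1, which cleaves carotene, at -0.47, and for Adh5, at 0.30 on the 1 of its 2 probe sets used. Both were near the floor on these sets. In the second summary Bco1 was below the floor and Adh5 differed by -0.01. The genes Aldh1a1 and Aldh1a2, which make retinoic acid, were below the floor on every array. So were Rbp7 and, on the 1 of its 2 probe sets used, Lrat, which stores retinol as esters. Aldh1a3, from the same list, was above the GCOS floor on 2 arrays, R388A/Y527F at 0 h and 1 h, at 22.4 and 23.1. In the second summary it was above the floor on all 6 arrays, at 24.2 to 27.0. These values are from the 1 of its 3 probe sets used. Rdh10, on the 1 of its 2 probe sets used, was above the floor on all 6 arrays in both summaries.

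Of the clearance and delivery genes, Cyp26a1 was below the floor on every array. Fabp5, a fatty acid binding protein that can also carry retinoic acid, was among the 2 measured and differed by 0.05 in mean log2, and by -0.05 in the second summary. Fabp4, near the floor on the 1 of its 4 probe sets used, differed by -0.01.

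Of 13 measured RXR receptors and partner receptors, 2 had all R388A/Y527F arrays above and 3 below, beside 15.2% and 17.0% of all genes. Vdr, the vitamin D receptor, read 55.0, 50.8 and 56.2 in R388A/Y527F cells, against 132.9, 111.2 and 95.6 in D386N/Y527F cells, a mean log2 difference of -1.06. Nr2f2, the orphan receptor COUP-TFII, read 344.0, 288.9 and 264.3 in R388A/Y527F cells, against 179.3, 176.0 and 134.9 in D386N/Y527F cells, a mean log2 difference of 0.88. The line values of Nr4a2, an orphan receptor, and Ppard, a fatty acid receptor, also separated, at 0.59 and -0.47. Rxrb overlapped between the lines, with a mean log2 difference of -0.14, and Rxrg was below the GCOS floor. In the second summary Rxrg was above the floor on all 6 arrays, at 25.7 to 27.9, and separated the lines at only -0.05. That summary had 2 of 12 genes of the list above and 5 below, beside 17.8% and 24.7% of all genes.

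Of 12 measured coregulators, 2 had all R388A/Y527F arrays above and 1 below, beside 15.2% and 17.0% of all genes. Nrip1, a corepressor of nuclear receptors, read 358.0, 336.7 and 275.9 in R388A/Y527F cells, against 160.3, 140.6 and 159.2 in D386N/Y527F cells. Its mean log2 difference was 1.07, and 1.23 in the second summary, but it fell short of 2-fold at 12 h. Med1 at 0.24 and Crebbp at -0.31 separated the lines by less, and Ncoa1 overlapped at -0.45 but separated in the second summary at -0.40.

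Of 15 measured retinoic acid target genes, 0 had all R388A/Y527F arrays above and 3 below, beside shares of 15.2% and 17.0% over all genes. Their median was -0.20, against -0.01 over all genes. In the second summary 1 of 11 was above and 2 below, beside 17.8% and 24.7% over all genes. The median there was -0.12, against -0.02 over all genes. Hoxa5, a homeobox gene, read 157.6, 136.6 and 183.3 in R388A/Y527F cells, against 263.1, 225.4 and 231.2 in D386N/Y527F cells, a mean log2 difference of -0.60. Tgm2, a transglutaminase, read 110.4, 109.4 and 83.2 in R388A/Y527F cells, against 154.3, 147.5 and 140.1 in D386N/Y527F cells, a mean log2 difference of -0.56. Hoxa2, the other homeobox gene below, had a mean log2 difference of -0.43 and overlapped between the lines in the second summary, at -0.22. The arrays of the lines overlapped for Bhlhe40, a transcriptional repressor, at -0.44, and for Hoxa3, at -0.50, whose direction turned to 0.11 in the second summary. Hoxb4 and Hoxb5 also overlapped, with GCOS differences in the other direction, at 0.19 and 0.27. In the second summary Hoxb4 separated the lines at 0.21, and Hoxb5 was near 0. The large gap in Crabp1 thus stood beside target genes whose differences were all under 2-fold on average.

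**Figure D4:**
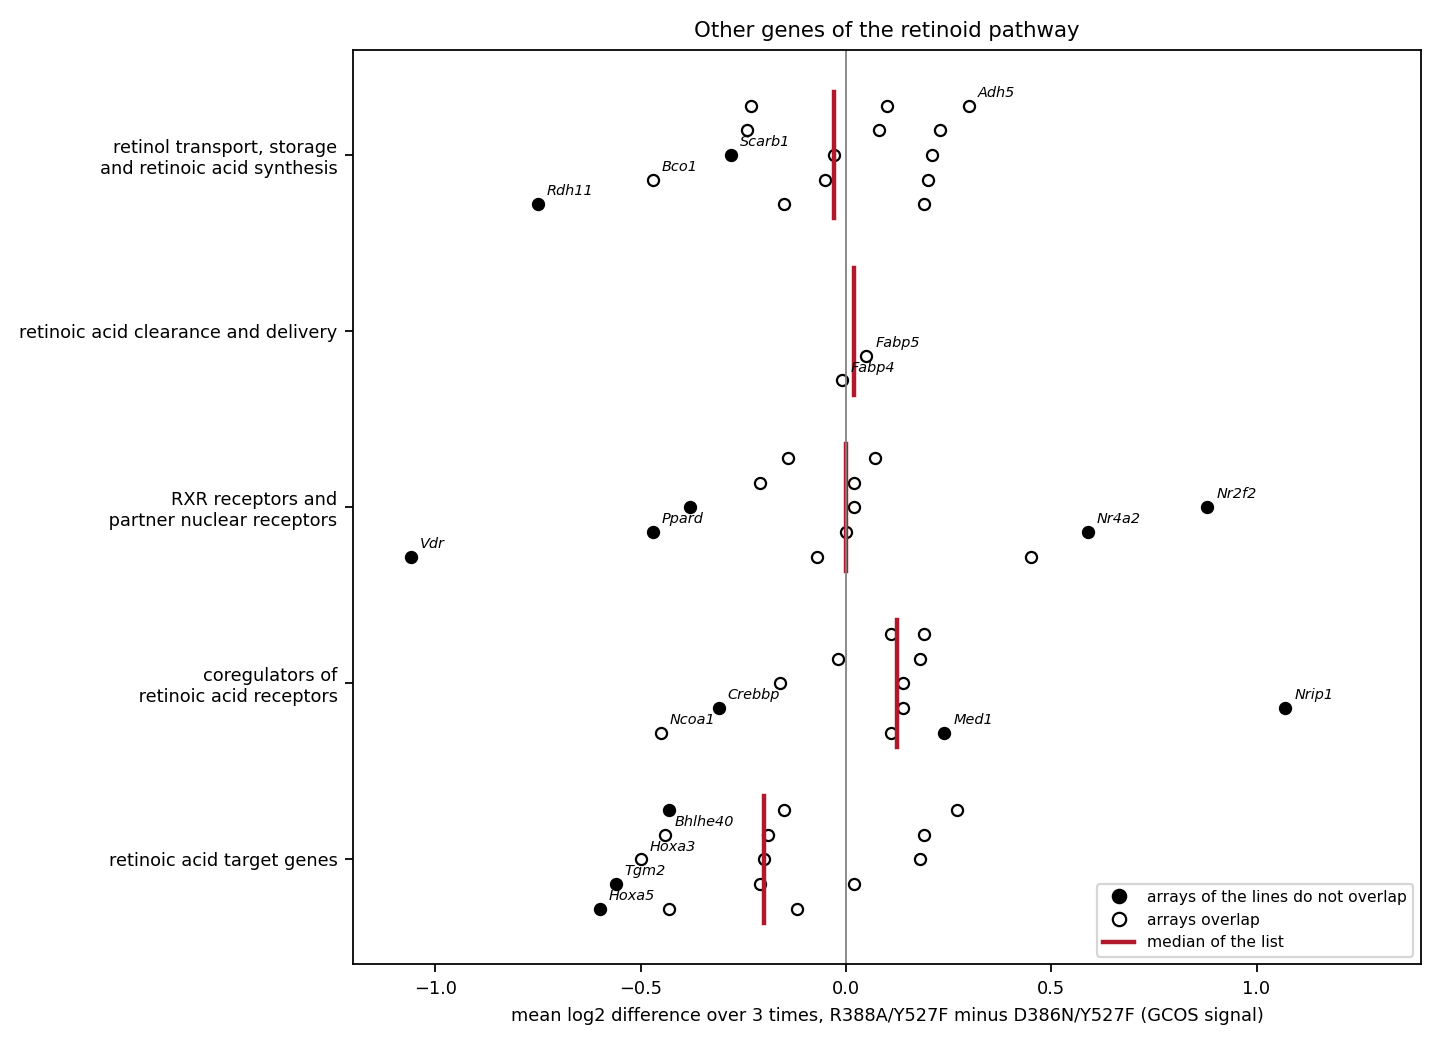
Mean log2 difference over the 3 times, R388A/Y527F minus D386N/Y527F, for the measured genes of 5 retinoid pathway lists in the GCOS signal. Filled points are genes whose arrays do not overlap between the lines, open points overlap, and the red bar is the list median. Nrip1 at 1.07 and Vdr at -1.06 lie farthest out, and the list medians lie between -0.20 and 0.13.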

How the data were processed

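Total RNA from 6 mouse cell samples was hybridised to 6 arrays. The values deposited by the authors are linear intensities made with GCOS 1.3, per the submitters' processing notes. A deposited table held the same intensities, with 0 differing values, beside a second summary whose method is not given in the sources used here. The array data give no read depth, and their number limits the precision.

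Of 45101 probe sets, 64 were controls, 34945 had 1 symbol in the platform annotation, 932 several and 9160 none. Each gene took 1 probe set, by suffix and then mean signal. A list or marker gene with several sets is therefore described by 1 of them, which need not be the brightest. Signals under the floor were raised to it, and log2 was taken. A fold with an array at the floor is a lower bound. A gene was compared where at least 1 array was above the floor. Calls of size needed 2-fold with the brighter array above the floor.

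limma 3.58.1 in R 4.3.3, with a variance trend and Benjamini-Hochberg adjustment at 0.05, was fitted to genes with 2 or more arrays over the floor, with line and time as terms, or line, treatment and their interaction. Each fit left 2 residual degrees of freedom, so that p-values measure the spread between arrays of different conditions. The fits were also run on simulated arrays of independent normal noise, without a line effect or floored signals. That run cannot show how they perform on data like these.

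All members were named, with up to 4 genes per pathway list by size of mean line difference and the 6 genes most like Crabp1 and Stra6. List genes below the GCOS floor on all arrays, Rxrb and Hoxa2 were named after their values were seen. So were Hoxb4, Hoxb5, Aldh1a3, Rdh10 and the cell type markers. The members and lists were chosen with earlier results of these data known.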

Additional observations from a re-analysis of the deposited data

How the results depend on the processing

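Over 118 alternative values, 107 were counted as the same, 11 as moved and 0 as reversed. A mean log2 difference was counted as the same when it shifted by less than its SD over the 3 times, whatever its direction. Rara was thus counted as the same at 0.10 without the 1 h arrays, against -0.02. Only a member at least 2-fold different on average could count as reversed, and Crabp1 alone was. The alternatives were the second summary, a floor at the 60th percentile (55.0), a pseudocount of 16 in place of the floor, quantile normalization, the mean of all probe sets, no low-signal filter, limma without a trend and leaving out each array, and, chosen after seeing the data, each probe set alone. The mean log2 difference in Crabp1, 5.28, was 5.99 in the second summary, 4.05 with the higher floor and 4.57 with the pseudocount, and lay between 5.07 and 5.44 in the leave-one-out values. Leaving out each time in turn gave -1.19 to -0.48 for Stra6, -0.96 to -0.34 for Rarb, -0.88 to -0.45 for Rbp4, -0.65 to -0.43 for Rarg, -0.32 to -0.19 for Rxra and -0.19 to 0.10 for Rara. Members changed by 2-fold at 12 h in D386N/Y527F cells numbered 1 in the second summary, 0 with the higher floor and 0 with the pseudocount, against 2. At 1 h in R388A/Y527F cells Stra6 made 1 with the pseudocount, against 0. Rbp4 moved to -0.01 and Rxra to -0.43 in the second summary, Rxra to -0.56 on its probe set 1425762_a_at, and Stra6 to -0.09 with the higher floor. limma called 0 members under every alternative run and in every leave-one-out fit, from 0 to 0, with up to 2 at an unadjusted p under 0.05. For the common change at 12 h over all genes, limma called 1 gene, against 25 with the higher floor, 8 with the pseudocount, 3 with quantile normalization and 0 without a trend, without the low-signal filter, with the mean of all probe sets or without any 1 array. No paired analysis was possible because each group is 1 array and its replicate number adds nothing to pair on, but line is a term of the fit for the common changes, which compares times within each line. Signals near the floor limit Rbp4, Rarb, Crabp2 and Cyp26b1, and in the GCOS signal Stra6 as well.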
